A study of Mus musculus with 24 samples.

Results

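The Z-disc is the plate that borders each sarcomere and anchors its actin filaments, and the costamere joins the Z-discs at the fibre surface to the membrane and the matrix outside. Alpha-actinin cross-links actin at the Z-disc, and a set of scaffold and LIM domain proteins attaches to it. Several of these proteins also move to the nucleus or change in amount when muscle is stretched or loaded, and are therefore described as mechanosensing. The genes described here are 49 members of this machinery, in 11 groups by role. They were listed by name, with earlier results of these data known. Their RNA was measured in the tibialis anterior, a muscle at the front of the lower leg. Members were found by setting the listed symbols, such as PDLIM7, FHL2, CSRP3 and TLN1, against the symbol that the array's annotation gives to a probe, in upper case, and 39 of the 49 genes had at least 1 probe, with 49 of the array's 26423 probes in all. The other 10 members are unnamed here: Myoz1, Myoz2, Myoz3, Myot, Mypn, Synm, Sync, Synpo2, Synpo2l and Zyx. Each of these 10 symbols holds the letter Y, and 0 of the 20377 named probes had a symbol with that letter. Of the 39 members, 33 had 1 probe and 6 had several, and for those the change at every probe is given, numbered from the brightest.

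The RNA came from 8 mice aged 6 weeks, 4 controls and 4 called Hira CKO (conditional knockout) in the labels, on a mixed C57BL6/J;129S1/SvImJ background. Controls carried Myf6 cre/+ with Hira flox/+, and Hira CKO animals carried Myf6 cre/+ with Hira flox/-, so both groups had the cre driver, which acts in muscle fibres, and 1 floxed allele. Cells without cre also differed between the groups, by an intact allele in controls against the minus allele in Hira CKO. Each animal was hybridised on 3 arrays, and the animal was the replicate (n = 4 per group), so that p-values measure the spread between these animals. The product of Hira is a histone chaperone that places a replacement form of histone H3 in chromatin outside DNA replication, and the comparison asks what its loss in fibres does to the transcriptome. The Hira probe read 569, 472, 467 and 473 in control animals 1 to 4 and 614, 553, 524 and 543 in Hira CKO animals 1 to 4 and was not called (0.17 log2, SE 0.087, adjusted p 0.193). Nothing in the labels or annotation says whether that probe lies inside the exons removed, so the directions below rest on the group labels.

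Values are intensities, and changes are Hira CKO minus control on the log2(intensity + 16) scale, from limma. A change is said to have been called, or a gene to have risen or fallen, where the p adjusted by the Benjamini-Hochberg method over all 26423 probes was under 0.05, and each adjusted p below is of that kind. The array carried no detection calls, and probes of different genes are not set against each other in level. In whole muscle, fewer cells of a type and less RNA per cell cannot be told apart. Of the fast fibre markers, 7 of 10 had a named probe, among them Ckm and Acta1 but not Myh1, Myh4 or Mylpf. The summed intensity of those 7 was 1423951 to 1655508 in controls and 1336882 to 1448752 in Hira CKO.

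More of the Z-disc and costamere probes fell than rose, and most were not called. Of the 49 probes, 13 fell and 3 rose, which is 26.5% and 6.12% of them, while 10.0% of all probes on the array fell and 10.5% rose. The members were chosen with earlier results of these data known, so these shares describe the list and do not test it. In either direction 32.7% of the member probes and 20.6% of all probes were called. The 4 animals of a group lay wholly below those of the other for 11 member probes and wholly above for 3, where 12.0% and 12.8% of all probes did so. The median change was −0.15 log2 over the member probes and 0.01 log2 over all probes, and the median size of a change was 0.23 and 0.16 log2. Changes of 2-fold or more occurred at 4 member probes (8.16%) and at 1.77% of all probes. The number of falls was 8 without control animal 4 or without Hira CKO animal 2, where 8.60% and 7.42% of all probes fell. The rises numbered 2 without Hira CKO animal 1 or 2, where 6.97% and 7.09% of all probes rose. The falls lay in the PDZ and LIM proteins (5 of 13 probes), the LIM-only proteins (2 of 7) and 1 probe in each of 6 further groups: alpha-actinins, ankyrin-repeat proteins, filamins, the nebulin-like proteins, capping protein and focal adhesion linkers. The 3 rises were Fhl2, Fhl1 and Pdlim2.

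**Figure D1:**
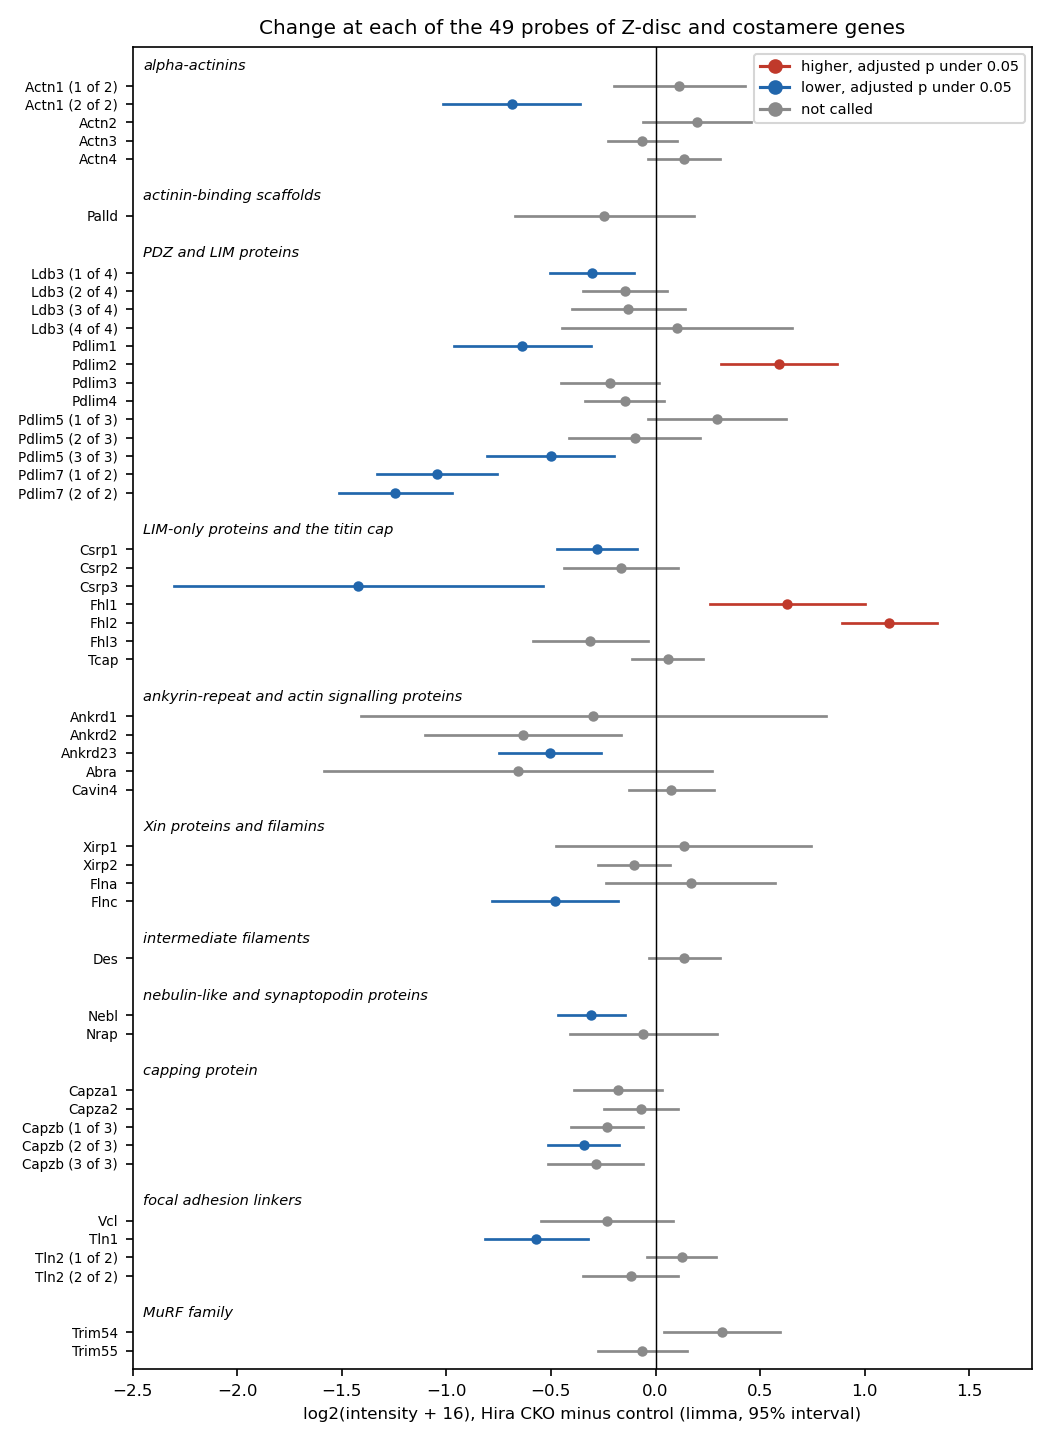
Change in log2(intensity + 16), Hira CKO minus control, with its 95% interval from limma (n = 4 animals per group), at each of the 49 probes, grouped by role. The 13 probes called lower are in blue and the 3 called higher in red, and the largest falls are those of Csrp3 and of both Pdlim7 probes.

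The alpha-actinins cross-link actin filaments. Actn2 and Actn3 encode the sarcomeric forms, Actn3 being the form of fast fibres, and neither was called. Actn2 read 138457, 121247, 115207 and 114634 in control animals 1 to 4 and 160254, 146014, 145168 and 112216 in Hira CKO animals 1 to 4 (0.20 log2, 95% interval −0.06 to 0.46). Actn3 read 99699.7, 107308, 110207 and 109944 in control animals 1 to 4 and 98152, 96167, 106297 and 108721 in Hira CKO animals 1 to 4 (−0.06 log2, −0.23 to 0.10). The groups overlapped for both genes, with the highest Actn2 values in Hira CKO animals 1 to 3. Without Hira CKO animal 4 Actn2 was called higher (0.31 log2, adjusted p 0.0457), the only 1 of 23 alternatives with a call. Actn1 and Actn4 encode the forms of non-muscle cells. The dimmer Actn1 probe fell by 0.69 log2 (SE 0.148, adjusted p 0.00984), from 586, 528, 509 and 663 in control animals 1 to 4 to 476, 293, 301 and 344 in Hira CKO animals 1 to 4, and every Hira CKO animal was below every control. The brighter Actn1 probe read 888, 1038, 935 and 1081 in control animals 1 to 4 and 1269, 1002, 807 and 1243 in Hira CKO animals 1 to 4, overlapped between the groups and changed by 0.11 log2 (adjusted p 0.606), so only 1 of the probes of Actn1 was called. Actn4, at intensities of 105 to 135.5 over the 8 animals, changed by 0.14 log2 (adjusted p 0.233).

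Of the scaffolds that bind alpha-actinin, such as the myozenins, myotilin and the palladin family, only Palld had a named probe among 6 members. Palld, which bundles actin in many cell types, read 1799.9, 2175, 2403 and 2705 in control animals 1 to 4 and 1495, 1921, 1592 and 2807 in Hira CKO animals 1 to 4 and changed by −0.25 log2 (adjusted p 0.394). The values of Hira CKO animal 4 and control animal 4 were the highest of their groups.

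The PDZ and LIM proteins bind alpha-actinin through a PDZ domain and hold kinases and other partners through LIM domains. All 7 genes were measured, with 13 probes. The fall of Pdlim7 (enigma) was seen at both of its probes. The brighter probe read 13277, 16727, 18279 and 16904 in control animals 1 to 4 and 8911, 8903, 7267 and 6713 in Hira CKO animals 1 to 4, a change of −1.05 log2 (SE 0.128, adjusted p 0.000505). The second probe read 2681, 3921, 3988 and 3679 in control animals 1 to 4 and 1491, 1560.3, 1421 and 1443 in Hira CKO animals 1 to 4, a change of −1.24 log2 (SE 0.122, adjusted p 0.000138). At both probes each Hira CKO animal lay well below the lowest control, which was animal 1. Pdlim1 (CLP36) fell by 0.64 log2 (SE 0.147, adjusted p 0.0136), from 14918, 11474, 13798 and 13039 in control animals 1 to 4 to 8863, 7436, 7021 and 11313 in Hira CKO animals 1 to 4. The highest Hira CKO value, in animal 4, was just under the lowest control value, in animal 2. Pdlim2, which in other cells takes part in ubiquitination of signalling proteins, went the other way, from 1241, 967, 1148 and 1328 in control animals 1 to 4 to 1954, 1579, 1535 and 2033 in Hira CKO animals 1 to 4, a rise of 0.59 log2 (SE 0.125, adjusted p 0.00922) with no overlap.

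Ldb3 (ZASP or cypher), a striated muscle scaffold whose human counterpart is mutated in myofibrillar myopathy, had 4 probes. The brightest fell by 0.30 log2 (SE 0.090, adjusted p 0.0386), from 96413, 114126, 91789 and 92723 in control animals 1 to 4 to 85184, 75016, 82816 and 75653 in Hira CKO animals 1 to 4. Leaving out any 1 of the 8 animals took this call away (adjusted p 0.0505 to 0.0999). The next probes changed by −0.15 log2, with 73370.3, 78193, 69429 and 71808 in control animals 1 to 4 and 69835, 63893, 73965 and 57519 in Hira CKO animals 1 to 4, and by −0.13 log2, with 20275, 23316, 22108 and 26607 in control animals 1 to 4 and 20127, 20120.0, 26006 and 18489 in Hira CKO animals 1 to 4, and both overlapped between the groups. The dimmest, at 136 to 339 over the animals, changed by 0.10 log2 (SE 0.246). Pdlim5 (ENH), which brings protein kinase C to the Z-disc, had 3 probes that differed in sign. The brightest was not called, except as higher in 1 of 23 alternatives. The dimmest fell by 0.50 log2 (adjusted p 0.0278), from 108, 145, 157 and 175 in control animals 1 to 4 to 85.3, 93.8, 94.9 and 119 in Hira CKO animals 1 to 4, with control animal 1 inside the Hira CKO range. It lost its call without control animal 2, 3 or 4 and without Hira CKO animal 1, 2 or 3 (adjusted p 0.0587 to 0.0773). The brighter probes changed by 0.29 log2 (adjusted p 0.186), with 2282, 3423, 2719.6 and 3040.0 in control animals 1 to 4 and 3357, 3302, 4419.5 and 2977 in Hira CKO animals 1 to 4, and by −0.10 log2 (adjusted p 0.657), with 2126, 2502, 2505 and 2506 in control animals 1 to 4 and 2019.8, 1919, 2123 and 3084 in Hira CKO animals 1 to 4. Pdlim3 (ALP), the muscle form that supports alpha-actinin, read 96979, 106892, 98515 and 107171 in control animals 1 to 4 and 86675, 78235, 107349.8 and 80349.5 in Hira CKO animals 1 to 4 (−0.22 log2, adjusted p 0.173). Hira CKO animal 3 was the highest of all 8 there, and the other 3 Hira CKO animals were the lowest. Without animal 3 Pdlim3 was called lower (−0.32 log2, adjusted p 0.0296), the only 1 of 23 alternatives with a call. Pdlim4 (RIL) read 1439.7, 1493, 1566 and 1465 in control animals 1 to 4 and 1389, 1197, 1296 and 1522 in Hira CKO animals 1 to 4 (−0.15 log2, adjusted p 0.247).

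**Figure D2:**
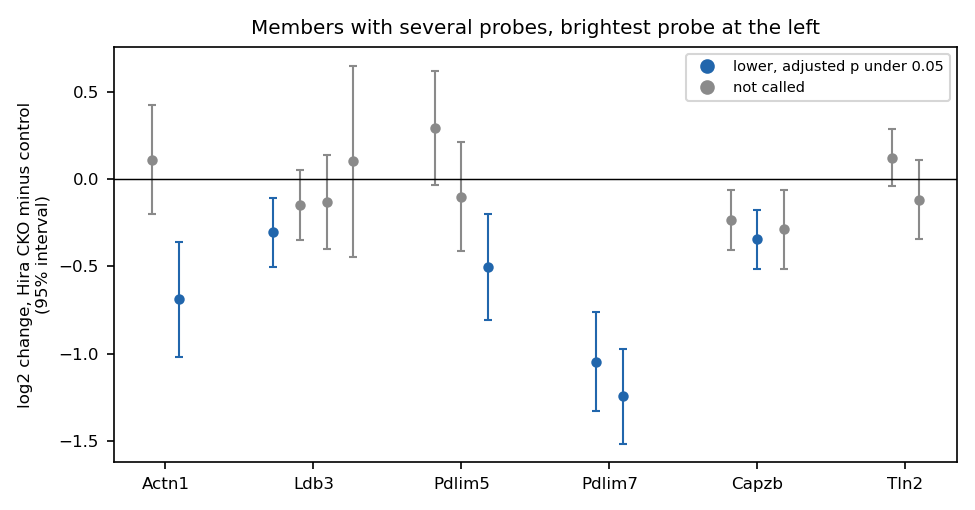
Change in log2(intensity + 16), Hira CKO minus control, with its 95% interval, at each probe of the 6 members with several probes, from the brightest probe of a gene at the left to the dimmest. Both Pdlim7 probes were called lower (−1.05 and −1.24 log2) and the 3 Capzb probes lay between −0.23 and −0.34 log2, whereas the probes of Actn1, Ldb3, Pdlim5 and Tln2 differed in sign.

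The LIM-only group holds the cysteine-rich proteins, the FHL proteins and Tcap (telethonin), the cap of titin at the Z-disc. Fhl2, a cofactor of several transcription factors that is best known from heart, had the largest rise. It read 189, 181, 217 and 247 in control animals 1 to 4 and 454, 509, 432 and 482 in Hira CKO animals 1 to 4, a change of 1.12 log2 (SE 0.102, adjusted p 9.02e-05), and the lowest Hira CKO animal was well above the highest control. The level was low, with every control under the array medians of 431.54 to 433.54. Fhl1, the member of this family that is abundant in skeletal muscle and mutated in human reducing body myopathy, rose by 0.63 log2 (SE 0.166, adjusted p 0.0252), from 178918, 185102, 199721 and 222870.4 in control animals 1 to 4 to 279700.1, 284091, 264765 and 264765 in Hira CKO animals 1 to 4. The groups did not overlap. Hira CKO animals 3 and 4 had equal means because their arrays held the same values, 257378 and 279538. The values given per animal are plain means of its 3 arrays, while the change averages the arrays on the log2 scale, and for Fhl1 this matters. Of the 3 arrays of control animal 1, the first read 25542 and the others 239031 and 272180, and with the median of the 3 arrays the rise was 0.36 log2 (adjusted p 0.0184). Without control animal 1 it was 0.44 log2 (adjusted p 0.00854). The Fhl1 call was lost without Hira CKO animal 1 or 2 (0.62 and 0.61 log2, adjusted p 0.0620 and 0.0618) and in the fit over single arrays with the animal as a random block (adjusted p 0.259). Fhl3 read 4970.0, 4910.2, 5273 and 4819.5 in control animals 1 to 4 and 5036, 3777, 4275 and 3209 in Hira CKO animals 1 to 4 and was not called (−0.31 log2, 95% interval −0.59 to −0.04, adjusted p 0.103), with Hira CKO animal 1 among the controls and the other 3 below them. Without Hira CKO animal 1 Fhl3 was called lower (−0.42 log2, adjusted p 0.0304), 1 of only 2 among 23 alternatives with a call.

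Csrp3 (muscle LIM protein), which is tied to stretch sensing and is higher in slow than in fast muscle, had the largest fall. Its change was −1.42 log2 (SE 0.396, adjusted p 0.0308), from 49625, 16413, 52317 and 62031 in control animals 1 to 4 to 11569, 13855, 25089.6 and 12717 in Hira CKO animals 1 to 4. Control animal 2 was far below the other controls, near the Hira CKO animals. Hira CKO animal 3 was the highest of its group, so the groups overlapped. The 3 arrays of control animal 2 read 17826, 16051 and 15362, so the low value was not that of 1 array. The call was lost without control animal 1, 3 or 4 and without Hira CKO animal 1, 2 or 4 (−1.21 to −1.38 log2, adjusted p 0.0686 to 0.0822). Csrp1, the form of smooth muscle and other cells, fell by 0.28 log2 (SE 0.085, adjusted p 0.0432), from 20336, 23467, 19012 and 22087 in control animals 1 to 4 to 16901, 16461, 18734 and 17708 in Hira CKO animals 1 to 4, with Hira CKO animal 3 just below control animal 3. That call was lost without control animal 1, 2 or 4 and without Hira CKO animal 1, 2 or 4 (adjusted p 0.0547 to 0.111). Csrp2 read 1138, 957, 954 and 1111 in control animals 1 to 4 and 1042, 789, 808 and 1094 in Hira CKO animals 1 to 4 (−0.16 log2, adjusted p 0.372). Tcap read 167720.2, 181964, 186607 and 185183 in control animals 1 to 4 and 194749, 197822, 188129 and 170779 in Hira CKO animals 1 to 4 (0.06 log2, 95% interval −0.11 to 0.23), and the groups overlapped.

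**Figure D3:**
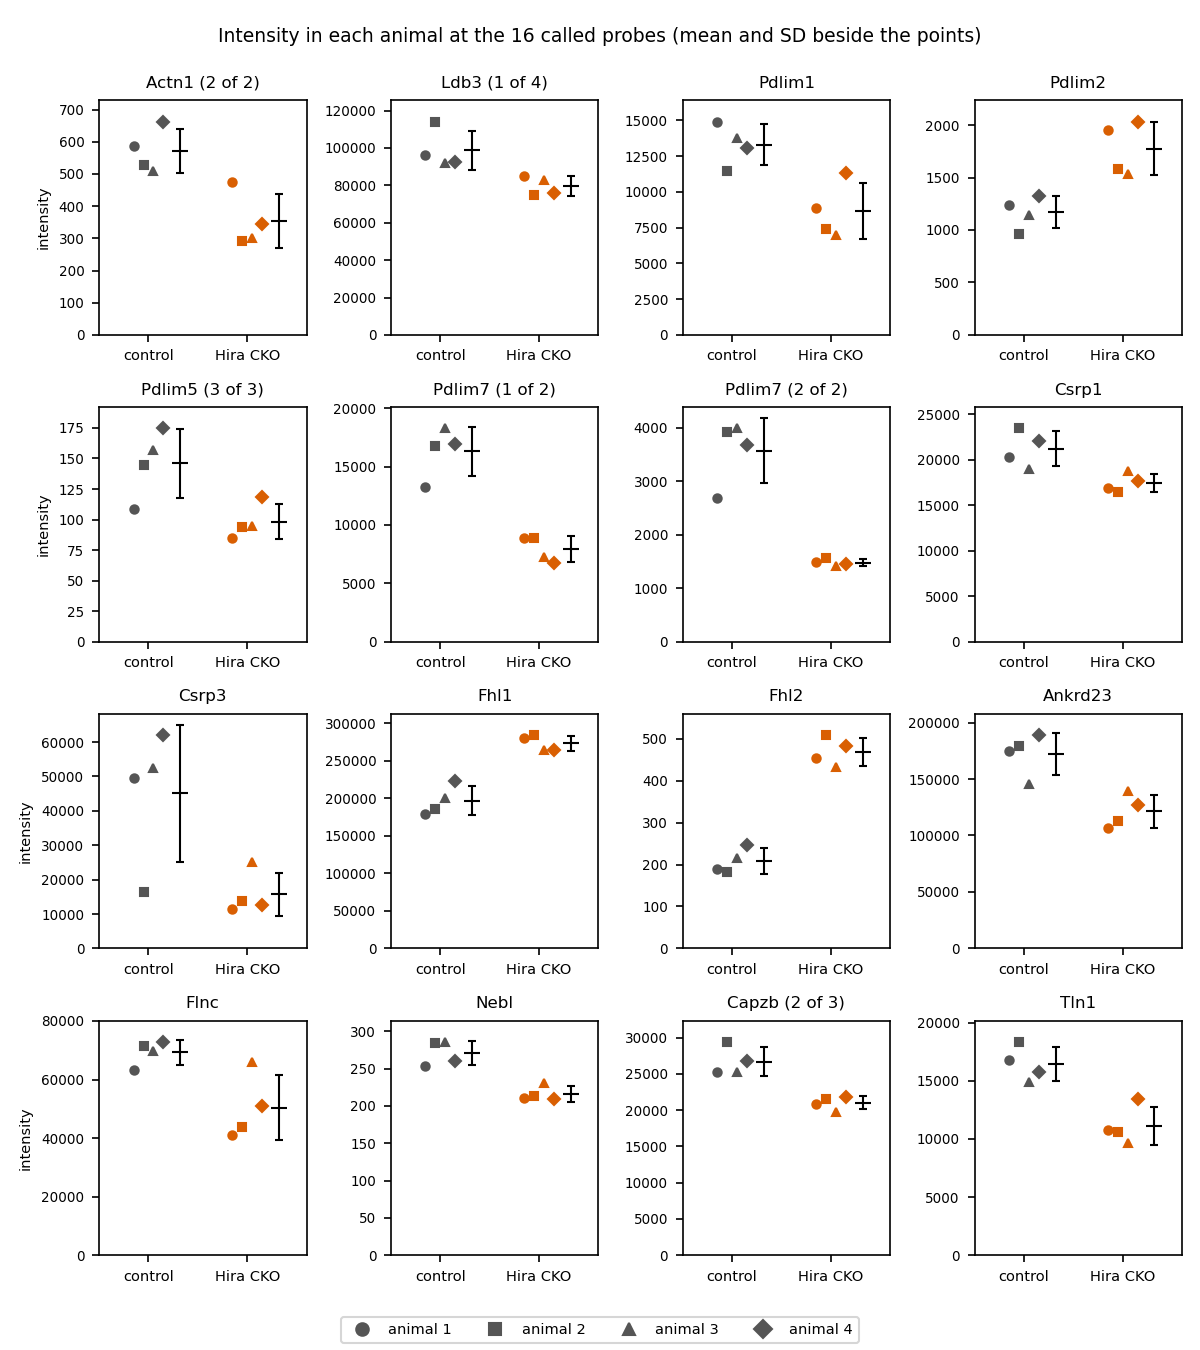
Intensity in each animal (linear axis from 0, marker shape giving the animal's number) at the 16 probes called in limma, with mean and SD of the 4 animals beside the points. The groups are apart at Fhl2 and at both Pdlim7 probes, while at Csrp3 control animal 2 (16413) lies below Hira CKO animal 3 (25090).

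Genes of the contractile apparatus are known targets of serum response factor (SRF), which binds a sequence called the CArG box and is switched by actin through the MRTF coactivators. TEAD factors, the DNA-binding partners of YAP and TAZ, bind the M-CAT motif, and MEF2 factors bind an A/T-rich site. The promoter windows of RefSeq (build GRCm38.p6, 250 bases before to 50 after an annotated start) covered 31 of the 39 measured members with 44 windows. Abra, Actn3, Csrp2, Pdlim2, Tcap, Tln2, Trim55 and Xirp1 had no window and were not searched. On either strand, the CArG box was in 7 of the 44 windows (15.9%), against 1.63% of all 32851 windows. M-CAT, searched as CATTCC, was in 27.3% against 14.7%, the MEF2 site in 4.55% against 3.19%, and the E-box, CANNTG, in 68.2% against 72.3%. TATAAA, on the gene's strand alone, was in 6.82% against 8.32%. No CArG, M-CAT or MEF2 match overlapped another in these windows, but windows of the same gene can overlap and then share a match, as 2 windows each of Ldb3 and Flnc do. The CArG box lay in windows of Fhl2 and Fhl1, which rose, of Ldb3, where 1 of 4 probes fell, of Nebl, which fell, and of Vcl, which was not called. A match is a description of these letters and does not show that a factor binds there. The 250 bases before the start are shown for the 5 genes with a CArG box, since they differed in direction. Both windows are shown for Fhl2 and 1 of 2 for Ldb3. Fhl1 also had 2 windows, and the one not shown held no CArG box. Sequences then follow for Ankrd1, which has 2 M-CAT matches, and for Pdlim7. Pdlim7 had the lowest p among the falls and no match to the CArG box, M-CAT or the MEF2 site. They run 5′ to 3′ on the gene's strand, and capitals mark matches to the CArG box, M-CAT and the MEF2 site.
Fhl2, first window (chr1:43163962-43164211, - strand): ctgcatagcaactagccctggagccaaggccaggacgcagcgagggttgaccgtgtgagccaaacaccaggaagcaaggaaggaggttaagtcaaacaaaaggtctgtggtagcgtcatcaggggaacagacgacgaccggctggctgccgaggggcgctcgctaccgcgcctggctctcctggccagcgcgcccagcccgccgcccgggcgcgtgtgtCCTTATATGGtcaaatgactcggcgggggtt
Fhl2, second window (chr1:43196762-43197011, - strand): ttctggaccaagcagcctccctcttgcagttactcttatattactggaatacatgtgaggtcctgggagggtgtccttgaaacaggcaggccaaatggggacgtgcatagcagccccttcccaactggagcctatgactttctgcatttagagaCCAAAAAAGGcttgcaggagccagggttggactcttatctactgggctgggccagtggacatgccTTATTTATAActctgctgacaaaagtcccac
Fhl1 (chrX:56779433-56779682, + strand): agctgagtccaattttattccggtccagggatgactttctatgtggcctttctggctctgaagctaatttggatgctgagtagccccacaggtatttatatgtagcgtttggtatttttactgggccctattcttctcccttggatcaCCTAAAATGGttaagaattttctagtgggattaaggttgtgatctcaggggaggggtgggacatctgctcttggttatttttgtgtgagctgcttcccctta
Ldb3 (chr14:34588682-34588931, - strand): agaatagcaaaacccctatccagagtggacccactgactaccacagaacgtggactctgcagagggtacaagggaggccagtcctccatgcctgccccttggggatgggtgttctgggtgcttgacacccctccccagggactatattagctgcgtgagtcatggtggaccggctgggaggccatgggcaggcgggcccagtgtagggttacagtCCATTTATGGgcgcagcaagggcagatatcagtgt
Nebl (chr2:17462857-17463106, - strand): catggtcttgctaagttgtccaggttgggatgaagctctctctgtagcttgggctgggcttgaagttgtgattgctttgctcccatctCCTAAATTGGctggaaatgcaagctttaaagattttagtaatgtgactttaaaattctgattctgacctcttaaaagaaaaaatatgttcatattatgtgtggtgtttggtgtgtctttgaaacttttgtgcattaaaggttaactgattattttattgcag
Vcl (chr14:20929148-20929397, + strand): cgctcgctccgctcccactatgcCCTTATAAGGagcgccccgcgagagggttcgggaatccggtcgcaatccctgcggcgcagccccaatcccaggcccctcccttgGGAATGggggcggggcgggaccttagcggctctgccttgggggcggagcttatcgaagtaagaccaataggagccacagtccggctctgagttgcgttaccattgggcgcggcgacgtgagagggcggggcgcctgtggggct
Ankrd1 (chr19:36119845-36120094, - strand): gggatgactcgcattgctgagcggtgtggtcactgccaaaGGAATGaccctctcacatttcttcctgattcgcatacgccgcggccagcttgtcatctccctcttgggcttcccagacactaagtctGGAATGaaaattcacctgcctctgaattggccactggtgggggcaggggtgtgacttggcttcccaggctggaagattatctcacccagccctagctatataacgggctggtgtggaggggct
Pdlim7 (chr13:55513447-55513696, - strand): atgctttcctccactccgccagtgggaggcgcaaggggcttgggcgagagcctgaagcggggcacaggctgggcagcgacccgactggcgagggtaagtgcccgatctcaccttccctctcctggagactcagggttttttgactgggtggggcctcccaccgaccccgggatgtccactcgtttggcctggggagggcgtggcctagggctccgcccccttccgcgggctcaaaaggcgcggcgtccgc

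In the 2 Fhl2 windows the CArG box begins 31 and 96 bases before the start, and the second also holds a MEF2 site 31 bases before the start. In Fhl1 it begins 102 bases before the start, in Ldb3 35, in Nebl 162 and in Vcl 227, with an M-CAT match at 143 in Vcl. The Nebl window is 1 of 4 annotated for that gene and the Fhl1 window 1 of 2, and the annotation does not tell which start a probe reads. The M-CAT matches of Ankrd1 begin 210 and 123 bases before the start. Beside these, the MEF2 site was found only for Xirp2, and M-CAT was found for Actn4, Ankrd23, Flna, Flnc, Nebl, Palld, Pdlim3 and Trim54, of which Ankrd23, Flnc and Nebl fell.

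The ankyrin-repeat proteins bind titin's spring region and appear in the nucleus after stretch, and Abra (STARS) and Murc, now named Cavin4, carry signals from actin and caveolae. Ankrd23 (DARP) fell by 0.51 log2 (SE 0.109, adjusted p 0.01003), from 175165, 178909, 145491 and 188895 in control animals 1 to 4 to 106701, 112586, 139219 and 126760.2 in Hira CKO animals 1 to 4, with no overlap. Ankrd2 (Arpp) read 39808, 21862, 30538 and 44036 in control animals 1 to 4 and 25351, 23617, 16892 and 20003 in Hira CKO animals 1 to 4 and changed by −0.63 log2, short of the threshold (SE 0.211, adjusted p 0.0591). Control animal 2 was again the lowest control and lay inside the Hira CKO range. Without that animal Ankrd2 was called lower (−0.83 log2, adjusted p 0.0118), but not without any other animal (adjusted p 0.0688 to 0.133). Of 23 alternatives, 3 called Ankrd2 lower. Ankrd1 (CARP), which is strongly induced by injury and load, read 1865, 1343, 1446 and 1702 in control animals 1 to 4 and 817, 687, 4679 and 1009 in Hira CKO animals 1 to 4. Hira CKO animals 1, 2 and 4 were below every control and Hira CKO animal 3 was the highest of all 8, at 4646, 4849 and 4543 on its 3 arrays. The change was −0.30 log2 with an SE of 0.499 (adjusted p 0.711), and without Hira CKO animal 3 it was −0.92 log2 (SE 0.152, adjusted p 0.00449). Leaving out any other animal gave no Ankrd1 call (adjusted p 0.69 to 0.996). Abra showed the same animal at the top, with 28523, 30496, 21296 and 24141 in control animals 1 to 4 and 12063, 7273, 38679.7 and 21278 in Hira CKO animals 1 to 4. Its change was −0.66 log2 (SE 0.416, adjusted p 0.290), and without Hira CKO animal 3 it was −1.07 log2 (adjusted p 0.0424). Leaving out any other animal gave no Abra call (adjusted p 0.269 to 0.619). Cavin4 read 11939.9, 14986, 12725 and 12343 in control animals 1 to 4 and 12549, 13861, 13364 and 14864 in Hira CKO animals 1 to 4 and was not called (0.07 log2, 95% interval −0.13 to 0.28).

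Xin proteins repair and remodel the Z-disc and the myotendinous junction, and filamins cross-link actin. Xirp1, induced at sites of fibre damage, read 8156, 16108, 10893 and 11839 in control animals 1 to 4 and 8599.8, 9388, 20984 and 16719 in Hira CKO animals 1 to 4 (0.14 log2, SE 0.274, adjusted p 0.764). Here too Hira CKO animal 3 was the highest of all 8, although its 3 arrays read 26358, 28536 and 8059. Xirp2 read 192989, 171431, 177157 and 161054 in control animals 1 to 4 and 167053, 168766, 162547 and 156921 in Hira CKO animals 1 to 4 (−0.10 log2, 95% interval −0.27 to 0.07). Flnc, the filamin of muscle, which gathers at damaged Z-discs, fell by 0.48 log2 (SE 0.136, adjusted p 0.0327), from 63321, 71377, 69576 and 72877 in control animals 1 to 4 to 40900.2, 43851, 65883 and 50978 in Hira CKO animals 1 to 4, with Hira CKO animal 3 among the controls. The Flnc call was lost without control animal 2, 3 or 4 and without Hira CKO animal 1, 2 or 4 (adjusted p 0.0573 to 0.0871). Flna, the filamin of non-muscle cells, read 6585, 7458, 4879.6 and 8039 in control animals 1 to 4 and 7109, 5768, 7958 and 9398 in Hira CKO animals 1 to 4 (0.17 log2, adjusted p 0.546).

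Hira CKO animal 3 thus had the highest value of its group for Ankrd1, Abra, Xirp1, Csrp3 and Flnc, genes picked out here after their values were seen. Over the 49 member probes, the root mean square deviation from the group mean was 0.389 log2 in that animal and 0.136 to 0.266 log2 in the other 7. Its median deviation was 0.003 log2, so it was not higher across the members as a whole. Without it, 15 member probes fell (30.6%, against 8.83% of all probes) and 3 rose (6.12%, against 8.81%).

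**Figure D4:**
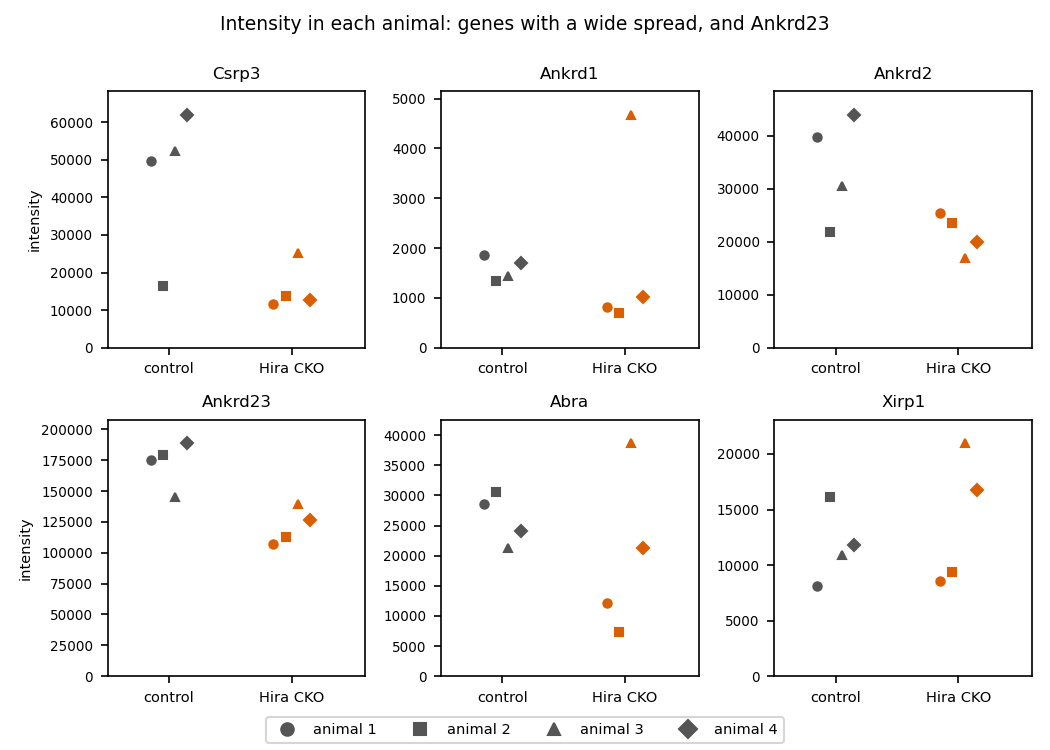
Intensity in each animal (linear axis from 0, marker shape giving the animal's number) for 5 genes with a wide spread between animals and for Ankrd23, which was called lower without overlap. Hira CKO animal 3 is the highest of all 8 for Ankrd1 (4679), Abra (38679.7) and Xirp1 (20984), and control animal 2 is the lowest control for Csrp3 and Ankrd2.

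Desmin (Des), the intermediate filament that ties neighbouring Z-discs together, was the only measured member of its group. It read 45838, 48766, 49855 and 50055 in control animals 1 to 4 and 48975, 53950.3, 52625 and 58645 in Hira CKO animals 1 to 4, a change of 0.14 log2 (95% interval −0.03 to 0.31, adjusted p 0.229), and Hira CKO animal 1 lay among the controls. Of the nebulin-like proteins, Nebl (nebulette), the form best known from heart, fell by 0.31 log2 (SE 0.072, adjusted p 0.0150) at a low level, from 254, 284, 286 and 260.1 in control animals 1 to 4 to 211, 213, 231 and 209 in Hira CKO animals 1 to 4, with no overlap. Nrap, a scaffold of the myotendinous junction and of new myofibrils, read 62869, 60910.0, 61666 and 82403 in control animals 1 to 4 and 50278, 68396, 83189.5 and 57733 in Hira CKO animals 1 to 4 (−0.06 log2, 95% interval −0.41 to 0.29).

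Capping protein closes the barbed ends of the thin filaments at the Z-disc as a pair of alpha and beta subunits. The 3 probes of the beta subunit, Capzb, all lay lower and 1 of them was called. The second probe read 25258, 29435, 25271 and 26814 in control animals 1 to 4 and 20848, 21599, 19812 and 21806 in Hira CKO animals 1 to 4, a fall of 0.34 log2 (SE 0.076, adjusted p 0.0114) with no overlap. The brightest probe read 34517, 37359, 32729.5 and 36135 in control animals 1 to 4 and 29725, 27523, 32465 and 30437 in Hira CKO animals 1 to 4 (−0.23 log2, adjusted p 0.0605), also with no overlap. The third read 10195, 13835, 12414 and 11364 in control animals 1 to 4 and 10427, 9917, 8794 and 9904 in Hira CKO animals 1 to 4 (−0.29 log2, adjusted p 0.0731), where Hira CKO animal 1 was just above control animal 1. At all 3 probes the second control animal was the highest of the 8. The alpha subunits were not called: Capza1 read 489, 669, 608 and 588 in control animals 1 to 4 and 533, 518, 518 and 487 in Hira CKO animals 1 to 4 (−0.18 log2, adjusted p 0.206). Capza2 read 59215, 61148, 56221 and 55309.8 in control animals 1 to 4 and 49565, 57869, 55316 and 58979 in Hira CKO animals 1 to 4 (−0.07 log2, adjusted p 0.577), with Hira CKO animal 1 the lowest of all. Leaving out 1 animal brought 3 of these uncalled probes past the threshold as lower: Capza1 (−0.26 log2, adjusted p 0.0428) and Capzb probe 3 of 3 (−0.36 log2, adjusted p 0.0298) without control animal 1, and Capzb probe 1 of 3 (−0.27 log2, adjusted p 0.0481) without Hira CKO animal 3. Of 23 alternatives, 1 called Capza1, 4 called Capzb probe 3 of 3 and 5 called Capzb probe 1 of 3.

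Talin and vinculin link integrins to actin at the costamere. Tln1, the talin of most cell types, fell by 0.57 log2 (SE 0.111, adjusted p 0.00621), from 16802, 18346, 14892 and 15725 in control animals 1 to 4 to 10774, 10633, 9619 and 13424 in Hira CKO animals 1 to 4, with no overlap. Tln2, the talin of mature striated muscle, changed by 0.12 log2 at its brighter probe (95% interval −0.04 to 0.29), with 2531, 2419.8, 2498 and 2710.0 in control animals 1 to 4 and 2539, 2799, 2903 and 2877 in Hira CKO animals 1 to 4, and by −0.12 log2 at its dimmer one (−0.35 to 0.11). Vcl (vinculin) read 6729.7, 9400.0, 9971 and 10837 in control animals 1 to 4 and 6922, 7714, 8675 and 7771 in Hira CKO animals 1 to 4 (−0.23 log2, SE 0.141, adjusted p 0.269). Control animal 1 had the lowest Vcl value of all 8 and the other 3 controls were above every Hira CKO animal. Without control animal 1 Vcl was called lower (−0.38 log2, adjusted p 0.0263), the only 1 of 23 alternatives with a call.

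Of the MuRF ubiquitin ligases that sit at the sarcomere, Trim54 (MuRF3) read 17736, 14199, 18205 and 16843 in control animals 1 to 4 and 19154, 17955, 25992 and 21065 in Hira CKO animals 1 to 4 and was not called (0.32 log2, 95% interval 0.04 to 0.60, adjusted p 0.0983). Hira CKO animal 2 lay among the controls. Of 23 alternatives, 3 called Trim54 higher. Trim55 (MuRF2), at 223 to 294 over the 8 animals, changed by −0.06 log2 (adjusted p 0.677).

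Several members (among them Actn1, Actn4, Csrp1, Flna, Pdlim1, Pdlim7 and Tln1) are also made by cells other than fibres. Some markers of other cell types were called while most were not. Over the brightest probe of each gene on the array, 10.3% fell and 11.0% rose. Of 11 smooth muscle and pericyte markers 8 were measured and 2 fell, Rgs5 (−1.11 log2) and Smtn (−0.41 log2), a call lost without control animal 2 or 3 (adjusted p 0.0503 to 0.0511). The summed intensity of the list was 43284 to 55287 in controls and 34977 to 41529 in Hira CKO. All 10 endothelial markers were measured, and 3 fell, Egfl7, Kdr and Pecam1, while Eng rose, with sums of 60206 to 76825 and 49373 to 54908. Pecam1 kept its call in only 2 of 8 fits with an animal left out (adjusted p of the others 0.0852 to 0.116), and its other probes were not called. Of 8 tendon markers, all measured, Kera (0.94 log2) and Thbs4 (0.80 log2) rose, the latter not without Hira CKO animal 1 (adjusted p 0.0533), with sums of 23040 to 42680 and 47408 to 61935. Of 9 slow fibre markers 6 were measured, with Atp2a2 (1.27 log2, its other probes at 0.21 and 0.47 not called) and Casq2 (1.03 log2) higher and Tpm3 lower, a call lost in 6 of 8 fits (adjusted p 0.0543 to 0.0754), and sums of 36175 to 45295 and 50312 to 56680. Of 8 heart muscle markers 5 were measured and Actc1, which is also made in developing skeletal muscle, fell, with sums of 31974 to 119146 and 8555 to 24019. These 5 sums did not overlap between the groups, but 25 of the 37 markers in these lists were not called, 7 fell and 5 rose, and each separation depended on 1 or 2 genes. With each marker left out in turn, an alternative chosen after seeing the data, 0 of the 5 lists stayed apart throughout. The tendon sums overlapped without Thbs4, which held 79.2% of the sum (6954 to 10387 in controls and 7046 to 12410 in Hira CKO). The slow fibre sums overlapped without Casq2 (23679 to 26665 and 21782 to 31682) and the endothelial sums without Egfl7 (32216 to 38406 and 31660 to 33889). The smooth muscle sums overlapped without Smtn (23086 to 33600 and 19579 to 26213) or without Rgs5 (40085 to 53602 and 33561 to 40826). The heart muscle sums overlapped without Actc1, which held 95.8% of the sum (1581 to 1980 and 1633 to 1852). The median change was −0.12 log2 for smooth muscle, −0.17 for endothelium, 0.13 for tendon, 0.31 for slow fibre and 0.005 for heart muscle. Among fast fibre markers Acta1 and Ckm fell, the latter not in 6 of 8 fits (adjusted p 0.0714 to 0.112). The fast fibre sums overlapped, but not without Tnnc2, which held 11.0% of the sum (1287928 to 1493046 in controls and 1178283 to 1274931 in Hira CKO). The sums also overlapped for fibroblast markers (9 of 9 measured, 0 called), satellite cell and regenerating fibre markers (4 of 10, 0 called) and macrophage markers (7 of 9, with Cx3cr1 lower and Itgam higher, the latter lost in 6 of 8 fits with adjusted p 0.0630 to 0.0946). In all these lists no measured marker was at or below 0 in any animal. As with the members, no probe was named by a marker symbol that holds the letter Y. This left out Myh7, Myl2 and Myl3 (slow fibre), Myh1, Myh4 and Mylpf (fast fibre) and Myh11 and Mylk (smooth muscle). It also left out Myh6, Myl7 and Mybpc3 (heart muscle) and Myf5, Myod1, Myog, Myh3 and Myh8 (satellite cell and regenerating fibre). The sums and medians do not cover these genes. The part of these cell types in the falls of Pdlim7, Pdlim1, Tln1, Csrp1 and Actn1 was not tested. Nor was it tested for the rises of Fhl2, Fhl1 and Pdlim2 or the changes of the other members.

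**Figure D5:**
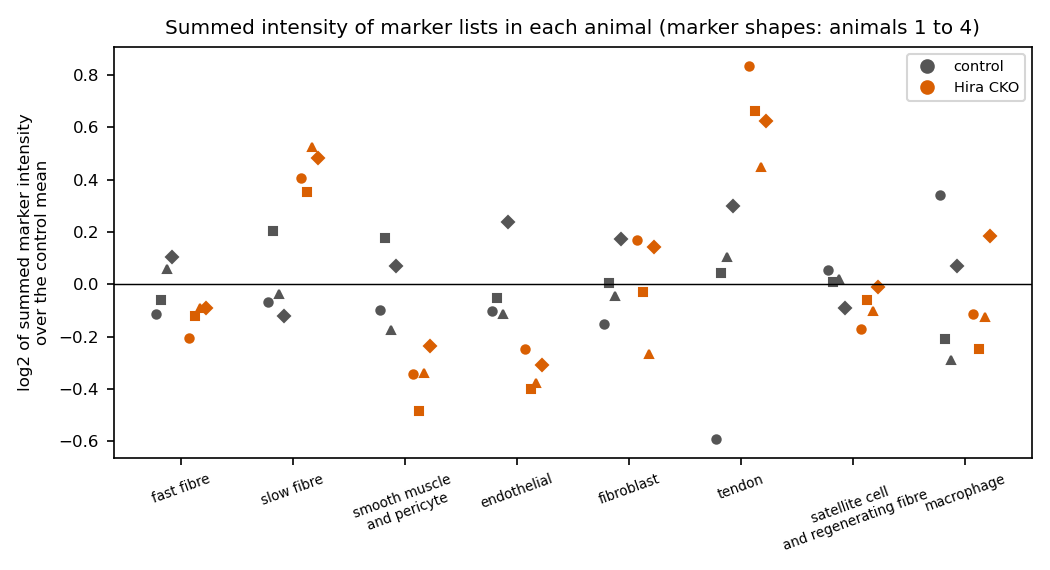
Summed intensity of the measured markers of each list but that of heart muscle in each animal, as log2 over the control mean (grey, control; orange, Hira CKO; marker shapes give animals 1 to 4). The sums for smooth muscle and endothelium lie lower, and those for tendon and slow fibre higher, in all 4 Hira CKO animals than in any control, but these sums overlap once Smtn or Rgs5, Egfl7, Thbs4 and Casq2, respectively, are left out.

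Over 5 lists of partner genes, 8 of 82 measured genes rose (9.76%) and 9 fell (11.0%), shares near the 11.0% and 10.3% of all genes, so the counts show nothing particular to the partners. Of 27 integrin adhesion and costamere symbols, with Nmrk2 listed under an old and a new name, 25 genes were measured. Of these 2 rose and 2 fell, with a median change of −0.002 log2. The falls were in Parvb (−0.61 log2), the muscle parvin beside integrin-linked kinase, and Fermt2 (−0.51 log2), the kindlin that activates integrins. Tns1, a tensin, rose by 0.83 log2, but its other probe changed by 0.18 log2 and was not called. The second rise was Lims2, at a level near the floor (13.1 ± 4.00 in controls and 20.8 ± 2.71 in Hira CKO, SD, n = 4), and its call was lost in 6 of 8 fits (adjusted p 0.0577 to 0.0936). Of 21 titin, obscurin and M-band symbols, with Klhl40 and Klhl41 each listed under an old and a new name, 12 genes were measured. Of these 2 rose and 2 fell (median −0.21 log2). The Myom and Mybp genes of that list, whose symbols hold the letter Y, had no named probe. Klhl41 (0.41 log2) and Lmod3 (0.39 log2), both needed for intact thin filaments, rose. Neb (nebulin) fell by 0.38 log2, a call lost without Hira CKO animal 1 or 2 (adjusted p 0.0506 to 0.0552). Ttn (titin) fell by 0.22 log2, a call lost in each of the 8 fits (adjusted p 0.0627 to 0.0981).

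Z-disc chaperones and kinases had 14 of 18 genes measured, of which 2 rose and 0 fell (median 0.06 log2). Unc45b, the chaperone of muscle myosin, rose by 0.53 log2 and the small heat shock protein gene Hspb6 by 0.34 log2. Of 21 symbols of SRF, YAP and TEAD factors, which include STARS, another name of the member Abra, 16 were measured. Of these 2 rose and 3 fell (median 0.05 log2). Yap1 and Myocd, whose symbols hold the letter Y, had no named probe. Vgll2, a muscle cofactor of TEAD, fell by 0.68 log2 and Mef2d by 0.43 log2, while Wwtr1 (TAZ) rose by 0.48 log2. The third fall was Mrtfb (−0.39 log2), whose other probe changed by −0.06 log2 and was not called. The second rise was Vgll3 (0.24 log2), lost in 6 of 8 fits (adjusted p 0.0541 to 0.0807). Of 18 genes known as targets of SRF or YAP 15 were measured, but not Cyr61 or Myl9, whose symbols hold that letter. In this list 0 rose and 2 fell (median −0.10 log2). These were the actins Actc1 (−2.21 log2) and Acta1 (−0.55 log2), which are thin filament genes of striated muscle. Actc1 intensities ranged widely, with a mean of 66799.9 ± 40278 (SD, n = 4) in controls and 13845 ± 6935 in Hira CKO.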

How the data were processed

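Per the labels, Trizol RNA of each animal was labelled with Cy5 and hybridised on 3 arrays. The authors' deposited table holds linear intensity values, and array medians of 431.54 to 433.54 show that the arrays had been brought to a common scale. Exact values also recur between arrays, such as 202674.2 at Fhl1, Tcap and Xirp2. Median scaling or quantile normalization of such values left the member counts at 3 higher and 13 lower, so these alternatives test little. The scanner, background correction and normalization method are not given in the sources used here, nor are slides or scan dates, so any such batch and the groups cannot be told apart. Values were turned into log2(intensity + 16), averaged over the 3 arrays of an animal, and fitted with limma 3.58.1 in R 4.3.3 (lmFit, eBayes), without a filter, and p-values were adjusted by the Benjamini-Hochberg method over 26423 probes. The script was tested on simulated data. Of all values, 50 were at or below 0, but no animal mean of a listed marker or partner was.

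The members and gene lists were chosen with earlier results of these data known. Described singly were members with a called probe or disagreeing probes, the 4 uncalled with the largest and the 6 with the highest intensity, and 3 called genes per list; others were named after their values were seen. Lists use a gene's brightest probe, and their sizes count symbols. Klhl40, Klhl41, Nmrk2, Mymk and Adgre1 were listed under an old and a new name, and the member Abra also as STARS. Names come from the platform annotation, and promoters from RefSeq (GRCm38.p6). Alternatives were the pseudocount, rescaling, a filter on dim probes, the use of the 3 arrays, variance models, animal weights, the animal number as a block, leaving out each animal, the threshold, a test without shared variance and, for marker sums, leaving out each marker, which was added after seeing the data.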

Additional observations from a re-analysis of the deposited data

Results flagged for a closer look

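Each group of 4 animals at each of the 49 probes was checked for an animal far from the others, 98 groups in all, and 3 (3.06%) held one, where chance alone gives about 5% of groups. At the second Pdlim5 probe control animal 1 was the lowest control, at 2126. At Nrap control animal 4 was the highest control, at 82403. At Nebl Hira CKO animal 3 was the highest of its group, at 230.8, still below every control.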

How the results depend on the processing

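Of the 16 called probes 4 were called under each of the 23 alternatives (both Pdlim7 probes, Fhl2 and Tln1), and 0 reversed direction. Of the 33 uncalled probes 12 were called under some alternative and 3 changed sign. Where such a call is given above with 1 animal left out, that animal was the one in its group that most opposed the change. Leaving it out therefore enlarges the change, and these fits are not counted as calls. The count of 13 lower probes became 8 (16.3%) with only array 1 of each animal, where 6.32% of all probes were lower. It became 4 (8.16%, against 4.90%) at a threshold of 0.01 and 5 (10.2%, against 4.97%) with the Welch test. When 1 animal was left out it ran from 8 to 15 (16.3% to 30.6%, against 6.88% to 9.46%). The count of 3 higher probes became 1 with the Welch test (2.04%, against 4.90% of all probes). It ran from 2 to 4 under the other alternatives (4.08% to 8.16%, against 4.21% to 15.3%). With the animal number as a replicate block 4 probes were higher (8.16%, against 9.48% of all probes) and 11 lower (22.4%, against 9.16%). Same-numbered animals are different mice, and their deviations correlated at 0.30, 0.09, −0.06 and 0.07. Those of animals with unlike numbers correlated at −0.21 to 0.17. So few values cannot decide whether the numbers pair the animals. Of the uncalled changes, Ldb3 probe 4 of 4 was −0.0070 log2 with only array 1 and ran from −0.1257 to 0.2825 with 1 animal left out. Nrap ran from −0.1874 to 0.0551 log2 with 1 animal left out. Xirp1 was −0.0745 log2 with animal weights and ran from −0.0456 to 0.3156 with 1 animal left out. For these shifts the cause was not tested. Without detection calls, whether the dimmest probes measured their gene is unknown, and 4 animals per group limit the precision.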

Other observations

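The animals of a group differed more at these probes than on the array as a whole, although the arrays of an animal did not. The median SD between the animals of a group was 0.161 log2 over the 49 probes and 0.127 log2 over all probes. The median SD between the 3 arrays of an animal was 0.104 and 0.130 log2. The 49 probes and all probes were not matched for intensity, and the part of intensity in these differences was not tested. Single arrays also stood apart from the other arrays of the same animal at Flna, a filamin of non-muscle cells. There 1 array of control animal 3 read 3125 beside 5691 and 5823, and 1 array of Hira CKO animal 4 read 12325 beside 7966 and 7903.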
